A study of Mus musculus with 6 samples.

Results

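The osteoclast resorption and proton pump genes are 35 genes chosen by name for their role in dissolving bone, out of 23733 genes in the count table. They fall into 3 classes: 10 osteoclast-restricted genes, 18 genes of the vacuolar proton pump (V-ATPase), and 7 genes of ion transport and of the ruffled border. The choice was made with earlier results of these data known. All 35 were in the table and all 35 passed the filter on low counts, which kept 18126 genes. Their levels were compared between femurs of 3 mutant mice and femurs of 3 control mice, with 1 library of total RNA per mouse. Mutant mice were Rosa26 mIfitm5; Acan-Cre ERT2 animals. They carried the Ifitm5 allele of osteogenesis imperfecta type V as a Flag-tagged cDNA in the Rosa26 locus, in 1 copy, and a tamoxifen-inducible Cre that the aggrecan promoter drives in chondrocytes. Control mice were littermates without that combination, and which allele each of them carried was not given in the sources used here. All mice were 5 weeks old and on a C57BL/6 background, and tamoxifen was injected at 10 mg/kg at postnatal day 10 by the methods, or from day 10 to day 15 by the study design. The Cre line is one for chondrocytes and not for osteoclasts, and the RNA came from whole pulverized femur. Fewer osteoclasts, less RNA per osteoclast and a larger share of RNA from other cells therefore cannot be told apart.

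Osteoclasts are multinucleated cells of the monocyte lineage that resorb bone. They seal off a patch of bone under an αvβ3 integrin ring and pump acid into it across a folded membrane, the ruffled border. Carbonic anhydrase II makes the protons and the V-ATPase moves them out. The chloride-proton antiporter ClC-7 carries the counter-charge and an anion exchanger on the opposite membrane removes bicarbonate. Cathepsin K then cleaves the collagen that the acid has laid bare. The V-ATPase has a membrane part (V0) and a cytosolic part (V1) and is present in every cell, but the a3 subunit (Tcirg1) and the d2 subunit (Atp6v0d2) are the forms that osteoclasts use most. Loss of TCIRG1, CLCN7, OSTM1, SNX10, PLEKHM1 or CA2 causes osteopetrosis in humans.

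Promoter windows are shown for 5 members, to set pump and chloride transport genes that many cells use beside genes that osteoclasts use most. The windows are from RefSeq on GRCm38.p6, a different build from the counts, and each holds 300 bases from upstream of an annotated start into the transcript. RefSeq windows were found for 23 of the 35 members, which gave 36 windows because some genes have several starts. Atp6v0a2, Atp6v0d2, Atp6v1b2, Atp6v1c1, Atp6v1g1, Atp6v1h, Car2, Dcstamp, Itgb3, Nfatc1, Ocstamp and Siglec15 had no window. Capitals mark CACGTG, the core of the element read by the lysosomal regulators TFEB and MITF. It was searched on both strands, as was TGANTCA, the AP-1 site, which does not overlap it. The strand is minus for Tcirg1, Atp6v0b and Atp6v0d1, and plus for Clcn7 and Ctsk.
Tcirg1 chr19:3907084-3907383: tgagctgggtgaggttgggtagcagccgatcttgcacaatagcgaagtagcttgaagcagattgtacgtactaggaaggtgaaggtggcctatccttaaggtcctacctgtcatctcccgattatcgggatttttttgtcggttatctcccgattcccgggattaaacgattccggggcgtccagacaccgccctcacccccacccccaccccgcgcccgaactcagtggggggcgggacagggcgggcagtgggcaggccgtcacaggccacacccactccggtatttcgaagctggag
Atp6v0b chr4:117887280-117887579: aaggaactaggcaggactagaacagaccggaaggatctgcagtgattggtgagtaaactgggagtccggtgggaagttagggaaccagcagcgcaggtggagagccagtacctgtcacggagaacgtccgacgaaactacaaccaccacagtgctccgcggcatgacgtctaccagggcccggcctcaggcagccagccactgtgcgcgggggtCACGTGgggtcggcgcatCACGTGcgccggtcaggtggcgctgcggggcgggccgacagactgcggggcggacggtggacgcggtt
Atp6v0d1 chr8:105566015-105566314: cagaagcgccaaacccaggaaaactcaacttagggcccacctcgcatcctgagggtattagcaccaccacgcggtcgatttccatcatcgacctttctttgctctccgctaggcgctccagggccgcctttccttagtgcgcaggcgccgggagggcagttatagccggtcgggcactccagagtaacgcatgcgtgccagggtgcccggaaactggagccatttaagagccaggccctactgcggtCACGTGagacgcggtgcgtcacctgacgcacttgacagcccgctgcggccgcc
Clcn7 chr17:25133141-25133440: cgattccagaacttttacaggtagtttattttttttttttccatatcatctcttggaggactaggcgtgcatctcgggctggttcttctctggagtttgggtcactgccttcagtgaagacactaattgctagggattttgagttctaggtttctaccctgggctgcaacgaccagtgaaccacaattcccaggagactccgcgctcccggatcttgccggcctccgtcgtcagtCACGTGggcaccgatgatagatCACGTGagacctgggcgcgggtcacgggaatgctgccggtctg
Ctsk chr3:95498960-95499259: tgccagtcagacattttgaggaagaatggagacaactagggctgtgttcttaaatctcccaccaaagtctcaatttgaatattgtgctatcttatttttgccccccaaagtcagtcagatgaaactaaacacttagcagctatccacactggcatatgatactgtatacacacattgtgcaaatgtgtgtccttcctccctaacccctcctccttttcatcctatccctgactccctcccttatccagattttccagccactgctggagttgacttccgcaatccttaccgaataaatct
CACGTG was present in 5 of the 36 member windows (13.9%), against 7.15% of all 32851 windows of the same length. Those 5 belonged to Atp6v0b, Atp6v0d1, Atp6v0e, Atp6v1a and Clcn7, that is 4 of 16 V-ATPase windows and 1 of 10 ion transport and ruffled border windows. It was in 0 of the 10 osteoclast-restricted windows, which came from 5 genes, and in 0 of the 3 windows of Tcirg1, some of which overlap. The windows of Atp6v0a1, Atp6v0c, Atp6v1d, Atp6v1e1, Atp6v1f, Atp6ap1 and Atp6ap2 also lacked it. The windows printed therefore do not stand for all pump genes. So few windows cannot show whether a class lacks the motif more often than other genes. The motif began at positions -36 and -18 from the start of Atp6v0b, at -3 for Atp6v0d1, and at -15 and 8 for Clcn7. TGANTCA was present in 2 of the 36 member windows (5.56%), those of Atp6v0a1 and Snx10, against 7.81% of all windows. Member windows held a median of 20 CG pairs, against 7 over all windows, while the Ctsk window held 2. A match is a description of the letters and not a bound site, and no match says only that these letters are not in the window.

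Depth ranged between 11473467 and 14593082 counts in the mutant libraries and between 12467626 and 17058572 counts in the control libraries. Levels are given as CPM, the counts of a gene relative to the library total, scaled by TMM, which corrects for differences in RNA composition. Every member had counts in every library, from a lowest value of 32 counts for Calcr, so none of them was at the floor. The allele under study could not be told from the endogenous gene in this table. Ifitm5 had 23.4, 36.7 and 36.0 CPM in mutant libraries 1, 2 and 3, and 31.8, 31.3 and 47.6 CPM in control libraries 1, 2 and 3 (log2 fold change -0.20 ± 0.23 (SE), edgeR adjusted p = 0.816). The labels give replicate numbers 1 to 3 in both groups. Deviations from the group means correlated between libraries of the same number (0.154, 0.212 and 0.465), but Mutant 1 correlated more with Control 2 (0.202). The fit was repeated with these numbers as a replicate block, a choice made from these same data. Blocked values are given beside the results they change.

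Most members had lower mean levels in the mutant femurs, by less than the spread between mice could resolve in the unpaired fit. Pairs below go by replicate number, and no source ties these numbers to litters. The log2 fold change, mutant over control, was negative for 32 of the 35 members, against 49.7% of all genes tested. The median was -0.34 over the members and 0.00 over all genes. With edgeR's quasi-likelihood test, 0 members passed an adjusted p of 0.05, as did 0 of the 18126 genes (0%), and adjusted p-values of the members ran between 0.545 and 0.984. By DESeq2, 0 members passed either, against 118 of all genes (0.651%). At an unadjusted p under 0.05, 7 members were lower by edgeR, against 3.49% of all genes, and 0 were higher, against 5.06%. Those 7 were Nfatc1, Tcirg1, Atp6v0b, Clcn7, Plekhm1, Src and Slc4a2. With the replicate block, 5 members were lower at an adjusted p under 0.05 (against 0.623% of all genes) and 1 was higher (against 2.7%). The 5 were Tcirg1, Atp6v0d2, Slc4a2, Jdp2 and Ocstamp, and the 1 was Car2. With the third pair left out of the block fit, 0 members were lower and Car2 was higher.

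The mutant library lay below the control library of the same number in all 3 pairs for 23 of the 35 members, against 19.1% of all genes. It lay above in all 3 pairs for Calcr and Car2, against 20.6% of all genes. The 3 mutant libraries lay below all 3 control libraries for 6 members (Nfatc1, Tcirg1, Atp6v1c1, Clcn7, Plekhm1 and Slc4a2), against 6.67% of all genes. The opposite held for 0 members, against 6.54%. Control 3 was the highest library for 32 of the 35 members and Mutant 1 the lowest for 28. Without Control 3, the log2 fold change was negative for 24 of the 35 members, against 49.3% of all genes. In that fit 1 member was lower at an unadjusted p under 0.05 by edgeR. Without Mutant 1, the log2 fold change was negative for 30 members, against 50.8% of all genes, and 2 were lower at that p. The share of all genes at that p was not counted in these fits, so whether these counts exceed it is not known. When libraries were scaled by total counts alone, the median of all genes moved to 0.16, and 28 of the 35 members were negative, against 29.4% of all genes.

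**Figure D1:**
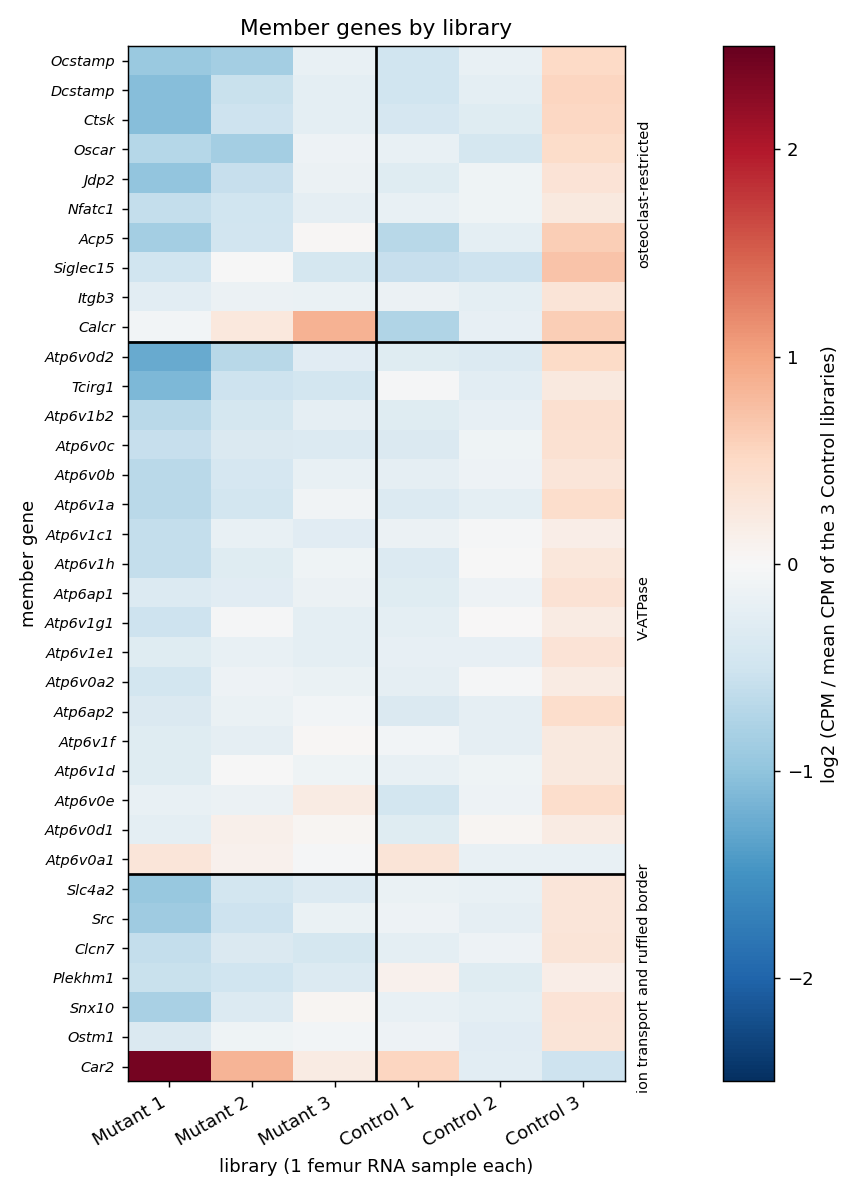
Heat map of the 35 members (rows, by class and by log2 fold change) in the 6 libraries (columns), coloured by log2 of the CPM over the mean CPM of the 3 control libraries. Control 3 is the highest library for 32 members, Mutant 1 is the lowest for 28, and Car2 runs the other way.

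Among the osteoclast-restricted genes, 9 of 10 had a negative log2 fold change and Calcr a positive one. The median was -0.47, with -0.31 when libraries were scaled by total counts alone, -0.21 without Control 3 and -0.71 without Mutant 3. Acp5 and Ctsk were the most abundant members. Per kilobase of annotated exon, Ctsk averaged 282 CPM in mutant and 419 CPM in control libraries, and Acp5 averaged 219 CPM in mutant and 287 CPM in control libraries, which placed them at ranks 59 and 78 of all genes tested. The defining enzymes of the osteoclast were thus well measured in these femurs.

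Acp5 encodes the tartrate-resistant acid phosphatase (TRAP) used to stain osteoclasts, at chr9:22038023-22049355 on GRCm39. It had 699, 905 and 1286 CPM in mutant libraries 1, 2 and 3, against 785, 1074 and 1930 CPM in control libraries 1, 2 and 3. The groups overlapped (log2 fold change -0.39 ± 0.36, SE). Ctsk encodes the collagen-cleaving protease cathepsin K, at chr3:95406178-95416732. It had 587, 857 and 1042 CPM in mutant libraries, against 919, 1006 and 1773 CPM in control libraries. Mutant 3 lay above both Control 1 and Control 2, and the log2 fold change was -0.57 ± 0.30 (SE, edgeR adjusted p = 0.628, and 0.0519 with the replicate block). Without the second pair the block fit called Ctsk lower.

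Nfatc1, the transcription factor that RANKL signaling induces to drive osteoclast formation, had 138, 147 and 178 CPM in mutant libraries, against 182, 192 and 246 CPM in control libraries. All 3 mutant libraries lay below all 3 control libraries, with a log2 fold change of -0.42 ± 0.16 (SE, edgeR adjusted p = 0.563, and 0.0506 with the replicate block). Jdp2, an AP-1 family factor needed for osteoclast formation in mice, had 25.3, 33.4 and 45.4 CPM in mutant libraries, against 40.3, 46.2 and 63.5 CPM in control libraries. Mutant 3 lay inside the control range. The log2 fold change of Jdp2 was -0.53 ± 0.24 (SE), with an edgeR adjusted p of 0.594, and of 0.0411 with the replicate block. No block fit with 1 pair left out called Jdp2.

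Dcstamp and Ocstamp encode the membrane proteins that osteoclast precursors need to fuse. Ocstamp had 16.7, 17.5 and 28.0 CPM in mutant libraries, against 22.5, 27.8 and 44.9 CPM in control libraries. Its log2 fold change of -0.61 ± 0.30 (SE) gave an edgeR adjusted p of 0.612, and of 0.0457 with the replicate block, a call that the block fit kept only without the first pair. Dcstamp had 21.1, 30.02 and 37.6 CPM in mutant libraries, against 31.4, 37.4 and 64.6 CPM in control libraries. For both, Mutant 3 lay just above Control 2 and the mutant library was the lower one in every pair. The log2 fold change of Dcstamp was -0.59 ± 0.31 (SE, edgeR adjusted p = 0.633, and 0.054 with the replicate block).

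The surface receptors of the class differed less uniformly. Oscar, a costimulatory receptor of osteoclasts, had 17.3, 15.8 and 26.0 CPM in mutant libraries, against 25.0, 21.0 and 39.2 CPM in control libraries (log2 fold change -0.53 ± 0.27, SE). Itgb3, the β3 chain of the integrin that anchors the sealing zone, had 242, 262 and 258 CPM in mutant libraries, against 263, 245 and 364 CPM in control libraries. Only Control 3 stood apart for Itgb3, and without it the log2 fold change of -0.19 ± 0.17 (SE) became 0.01. Megakaryocytes also express Itgb3, and their 12 markers summed to between 167 and 450 CPM in mutant libraries and between 83.2 and 139 CPM in control libraries. The ratio of Itgb3 to its partner Itgav, chosen after the data were seen, was 0.619, 0.509 and 0.432 in mutant libraries, against 0.446, 0.3995 and 0.403 in control libraries. The part of megakaryocyte RNA in the Itgb3 level was not tested.

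Siglec15, a sialic acid-binding receptor of osteoclasts, had 4.99, 7.03 and 5.26 CPM in mutant libraries, against 4.74, 4.92 and 11.6 CPM in control libraries. Its log2 fold change of -0.31 ± 0.38 (SE) became 0.26 without Control 3. Calcr, the calcitonin receptor of mature osteoclasts, was the 1 gene of the class on the other side. It had 4.27, 5.32 and 8.11 CPM in mutant libraries, against 2.66, 3.88 and 6.84 CPM in control libraries. The mutant library was the higher one in each pair, but the groups overlapped (log2 fold change 0.39 ± 0.39, SE, edgeR adjusted p = 0.8, and 0.456 with the replicate block).

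Of the 18 V-ATPase genes, 17 were lower on average in mutant libraries, at a median log2 fold change of -0.25. When libraries were scaled by total counts alone, 13 were negative and the median was -0.09, and without Control 3 the median was -0.10. Tcirg1 and Atp6v0d2, the forms that osteoclasts favour, had the most negative values of the class. Tcirg1, the a3 subunit, at chr19:3946050-3957917, had 71.7, 110 and 114 CPM in mutant libraries, against 154, 132 and 186 CPM in control libraries. The groups did not overlap, and the smallest gap was the one between Mutant 3 and Control 2. Its log2 fold change was -0.67 ± 0.20 (SE, 95% interval -1.13 to -0.21, edgeR adjusted p = 0.545). With the replicate block it was -0.69, with an adjusted p of 0.0343, and Tcirg1 was not called with block and total-count scaling together, or by the block fit without the first or the third pair.

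Atp6v0d2, the d2 subunit, at chr4:19876838-19922614, had 79.0, 117 and 155 CPM in mutant libraries, against 154, 149 and 264 CPM in control libraries. Mutant 3 lay at the level of Control 1 and Control 2. An estimate of -0.69 ± 0.30 (SE, log2 scale) gave an edgeR adjusted p of 0.586, and with the replicate block the adjusted p was 0.0143. It was the only lower member called with block and total-count scaling together, and it was not called by the block fit without the third pair.

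The forms that stand in for these subunits in other cells had estimates nearer to 0. Atp6v0d1, the d1 subunit of most tissues, had 25.5, 32.8 and 31.1 CPM in mutant libraries, against 24.5, 31.2 and 34.8 CPM in control libraries (log2 fold change -0.02 ± 0.18, SE, 95% interval -0.42 to 0.38). Atp6v0a1, the a1 subunit, had 62.5, 54.2 and 49.2 CPM in mutant libraries, against 63.1, 44.1 and 44.0 CPM in control libraries. Its log2 fold change of 0.13 ± 0.18 (SE, 95% interval -0.26 to 0.53) was the only positive one among the V-ATPase genes. Atp6v0a2, the a2 subunit, had 54.5, 68.8 and 67.2 CPM in mutant libraries, against 64.1, 73.8 and 86.9 CPM in control libraries (log2 fold change -0.24 ± 0.15, SE, 95% interval -0.59 to 0.11).

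Atp6v0b, the c″ subunit of the membrane ring, was the remaining V-ATPase gene with an unadjusted p under 0.05. It had 45.0, 53.9 and 63.0 CPM in mutant libraries, against 61.5, 66.1 and 88.2 CPM in control libraries (log2 fold change -0.41 ± 0.18, SE, edgeR adjusted p = 0.578). The other 12 genes were the ring subunit Atp6v0c, Atp6v0e, the V1 subunits Atp6v1a, Atp6v1b2, Atp6v1c1, Atp6v1d, Atp6v1e1, Atp6v1f, Atp6v1g1 and Atp6v1h, and the accessory proteins Atp6ap1 and Atp6ap2. Their mean levels ran between 23.3 and 200 CPM in mutant libraries and between 26.0 and 262 CPM in control libraries. All 12 log2 fold changes were negative, between -0.43 for Atp6v1b2 and -0.04 for Atp6v0e, with unadjusted edgeR p-values between 0.0518 and 0.878. Atp6v1c1, a C subunit form of V1, was the 1 of them whose groups did not overlap, with 37.1, 49.2 and 46.3 CPM in mutant libraries, against 50.5, 55.0 and 62.6 CPM in control libraries. The sign was positive for Atp6v0e, Atp6v0d1, Atp6v1d and Atp6v1f under total-count scaling.

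**Figure D2:**
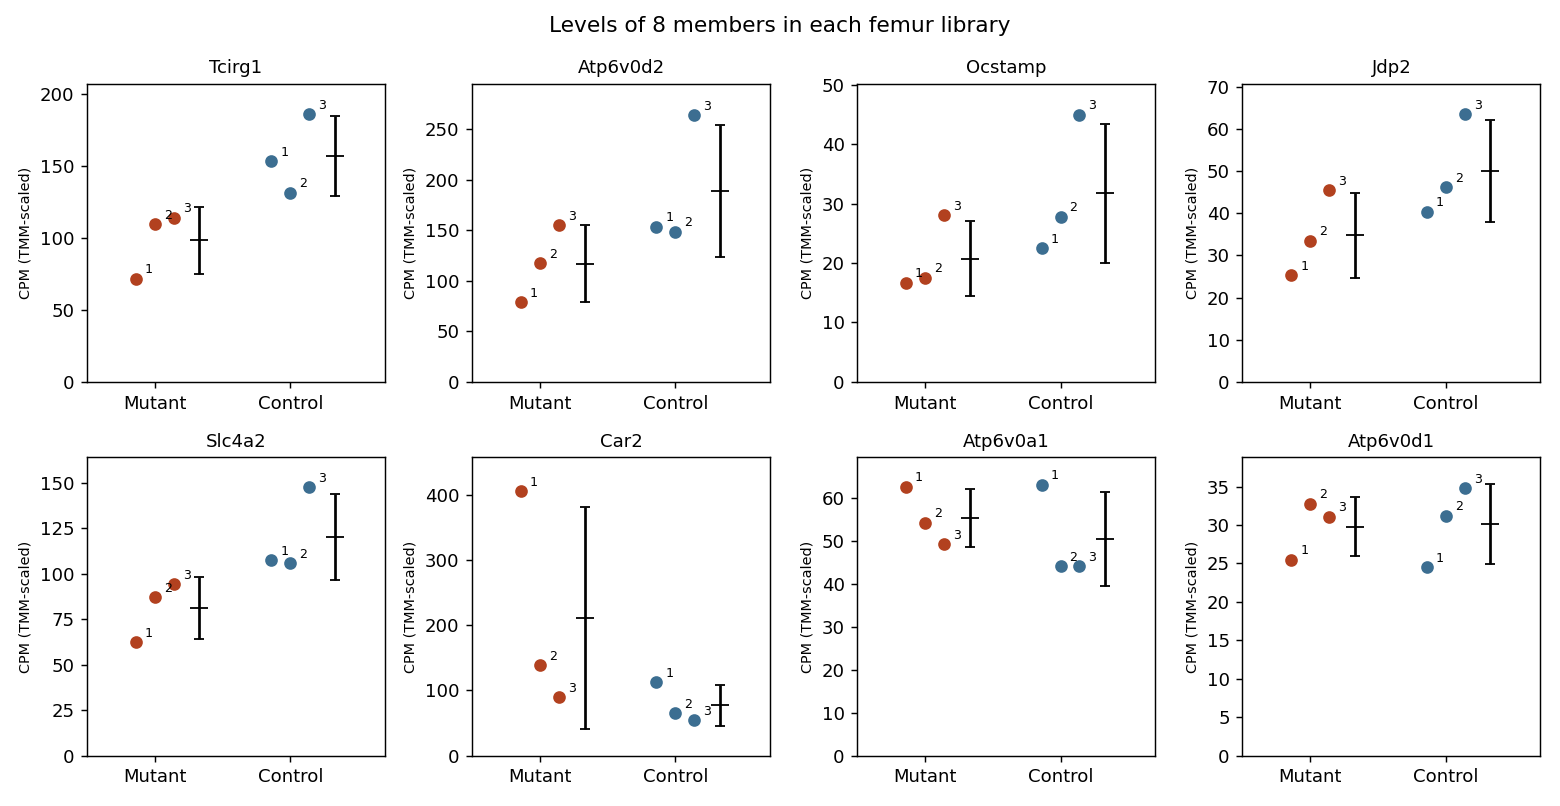
CPM of 8 members in each library, with the replicate number beside each point and the mean ± SD of each group of 3 at its right. The 3 mutant values of Tcirg1 (71.7 to 114 CPM) and Slc4a2 (62.3 to 94.4 CPM) lie below all 3 control values, while those of Atp6v0d1 and Atp6v0a1 overlap the control values.

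Ratios between subunits counted in the same library do not depend on how libraries are scaled. The ratio of Atp6v0d2 to Atp6v0d1 counts was 3.10, 3.58 and 4.99 in mutant libraries, against 6.26, 4.77 and 7.60 in control libraries. Mutant 3 lay just above Control 2, and the mean log2 ratio was 1.93 ± 0.35 in mutant and 2.61 ± 0.34 in control libraries (SD, n = 3 each), a difference of -0.68 (exact two-sided permutation p = 0.2). The ratio of Tcirg1 to the sum of Atp6v0a1 and Atp6v0a2 was 0.613, 0.894 and 0.982 in mutant libraries, against 1.21, 1.12 and 1.42 in control libraries. All mutant values of this ratio were under 1 and all control values over 1, so the groups did not overlap. Counts were not divided by gene length, so a value of 1 does not mean equal transcript numbers. The mean log2 ratio was -0.30 ± 0.36 in mutant and 0.31 ± 0.18 in control libraries (SD, n = 3 each), a difference of -0.61 (exact two-sided permutation p = 0.1, the smallest that 3 against 3 can give).

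Acp5 and Ctsk together were also set against 12 macrophage markers, since osteoclasts and macrophages share their precursors. This ratio was 1.05, 1.62 and 2.10 in mutant libraries, against 1.96, 1.88 and 3.29 in control libraries, and the groups overlapped (difference in mean log2 ratio -0.58, exact two-sided permutation p = 0.3). Adjusted over the 3 ratios, each p was 0.3. In every pair the mutant ratio was the lower one for all 3 ratios as listed. The difference for the macrophage ratio was -0.33 without Control 3 and -0.32 without Mutant 1. Lyz2, which neutrophils also make, held between 43.7% and 59.3% of the summed macrophage CPM in mutant libraries and between 31.6% and 43.6% in control libraries. Set against the other 11 markers, an alternative chosen after the data were seen, Acp5 plus Ctsk gave 2.59, 3.45 and 3.73 in mutant libraries, against 3.47, 3.16 and 4.81 in control libraries. Without Lyz2 the difference in mean log2 ratio shrank to -0.22 and the second pair turned, with Mutant 2 above Control 2. That value was -0.04 when Control 3 was also left out and -0.06 when Mutant 1 was.

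**Figure D3:**
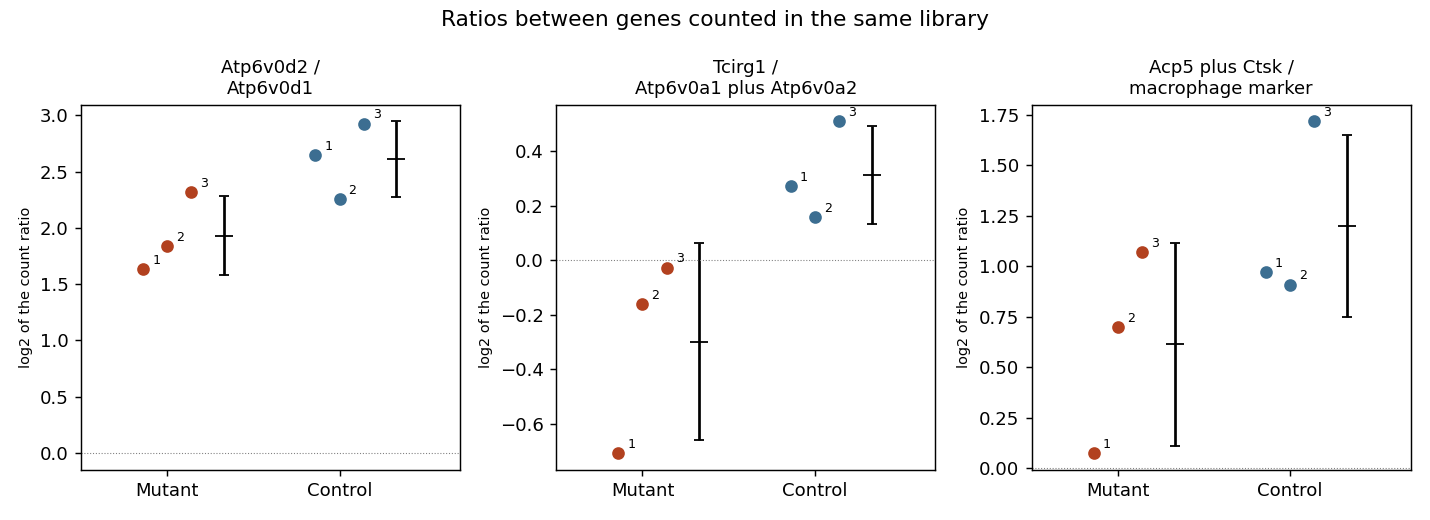
Log2 of 3 count ratios in each library, with the replicate number beside each point and the mean ± SD of each group of 3 at its right. The ratio of Tcirg1 to Atp6v0a1 plus Atp6v0a2 is lower in all 3 mutant libraries than in all 3 control libraries. The other 2 ratios overlap between the groups.

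Among the ion transport and ruffled border genes, 6 of 7 had a negative log2 fold change and Car2 a positive one. Their median was -0.46, with -0.30 under total-count scaling and -0.27 without Control 3. Slc4a2, the chloride-bicarbonate exchanger of the membrane facing away from bone, at chr5:24628835-24645948, had 62.3, 87.1 and 94.4 CPM in mutant libraries, against 107, 106 and 148 CPM in control libraries. The groups did not overlap. The log2 fold change of Slc4a2 was -0.57 ± 0.19 (SE, edgeR adjusted p = 0.562), and with the replicate block the adjusted p was 0.0275. Without the first or the third pair the block fit did not call it.

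Clcn7, the ClC-7 chloride-proton antiporter, had 51.4, 60.0 and 57.0 CPM in mutant libraries, against 65.2, 70.6 and 96.5 CPM in control libraries. Its groups did not overlap either (log2 fold change -0.46 ± 0.17, SE, edgeR adjusted p = 0.563, and 0.0852 with the replicate block). Ostm1, the partner that ClC-7 needs for its stability, had 47.4, 56.4 and 58.0 CPM in mutant libraries, against 56.0, 49.8 and 76.4 CPM in control libraries. Mutant 2 and Mutant 3 lay above both Control 1 and Control 2, and the log2 fold change of -0.17 ± 0.18 (SE) became 0.03 without Control 3.

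Plekhm1, an adaptor for lysosome trafficking to the ruffled border, had 65.2, 68.0 and 76.1 CPM in mutant libraries, against 104, 77.7 and 107 CPM in control libraries. The groups were separated by the narrow gap between Mutant 3 and Control 2 (log2 fold change -0.46 ± 0.15, SE, edgeR adjusted p = 0.545, and 0.0665 with the replicate block). Src, the kinase without which mouse osteoclasts form no ruffled border, had 28.2, 36.1 and 46.3 CPM in mutant libraries, against 47.2, 44.3 and 64.1 CPM in control libraries (log2 fold change -0.49 ± 0.21, SE, edgeR adjusted p = 0.578). Mutant 3 lay above Control 2. Snx10, a sorting nexin of endosomes, had 105, 144 and 189 CPM in mutant libraries, against 162, 154 and 233 CPM in control libraries (log2 fold change -0.32 ± 0.24, SE).

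Car2, which encodes carbonic anhydrase II, at chr3:14951317-14967568, went against most of the other members, as did Calcr and Atp6v0a1. It had 406, 139 and 89.3 CPM in mutant libraries, against 113, 65.0 and 54.3 CPM in control libraries. Mutant 1 was far above the rest, and Mutant 3 lay below Control 1. Its log2 fold change was 1.45 ± 0.65 (SE, 95% interval -0.20 to 3.10, edgeR adjusted p = 0.615), and 0.56 without Mutant 1. With the replicate block it was 1.22, with an adjusted p of 0.0275, and the block fit called Car2 higher with each pair left out in turn.

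Red cell precursors also make carbonic anhydrase II. The 16 erythroid markers, such as Hbb-bs and Slc4a1, summed to 12027, 4267 and 2119 CPM in mutant libraries 1, 2 and 3, against 2466, 1738 and 1091 CPM in control libraries. No defining erythroid marker was at 0 in any library, all 16 were on the positive side (median 1.94), and 14 of the 16 were higher with the replicate block. The 6 libraries stood in the same order for Car2 as for this sum. The ratio of Car2 to Slc4a1, chosen after the data were seen, was 0.467, 0.483 and 0.674 in mutant libraries, against 0.622, 0.816 and 1.19 in control libraries. Set against Ctsk instead, Car2 was 0.691, 0.162 and 0.0857 of its counts in mutant libraries, against 0.123, 0.0646 and 0.0306 in control libraries. The part of erythroid RNA in the Car2 level was not tested.

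**Figure D4:**
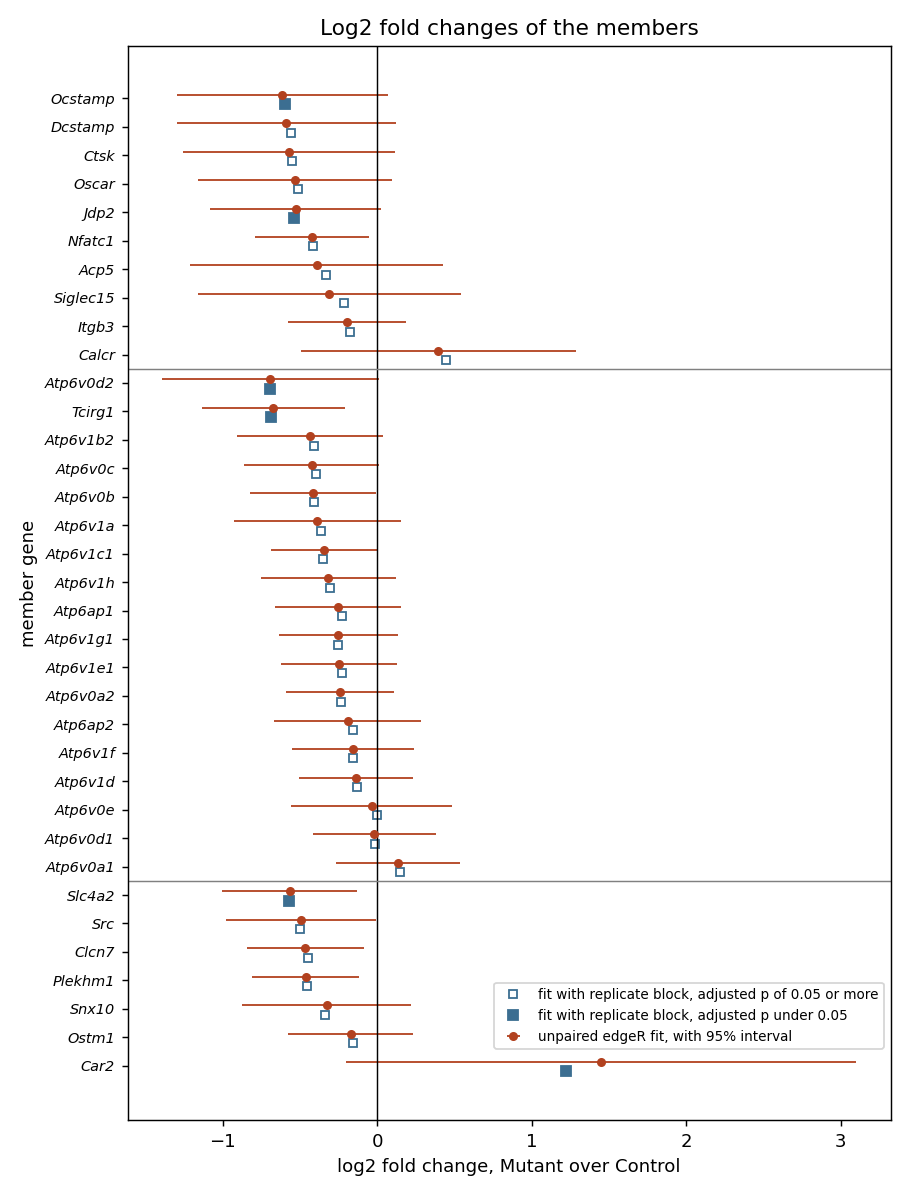
Log2 fold changes, mutant over control, of the 35 members by class, as edgeR estimates with 95% intervals (circles) and as estimates with the replicate block (squares, filled at an adjusted p under 0.05). The filled squares are Ocstamp, Jdp2, Atp6v0d2, Tcirg1 and Slc4a2 on the negative side and Car2 on the positive side, and 7 of the 35 unpaired intervals exclude 0.

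Further genes of the same pathways were read from lists. Of 20 other osteoclast genes, 16 were negative (median -0.23), 0 passed by edgeR or DESeq2, and 3 were lower with the replicate block. These were Ckb (brain creatine kinase, log2 fold change -0.65 ± 0.29, adjusted p = 0.0126 with the block), Slc9b2 (a sodium-proton exchanger, -0.61 ± 0.24, 0.0228) and Slc37a2 (a sugar phosphate transporter, -0.55 ± 0.23, 0.0274), with SE after each estimate. Slc37a2 had 85.5, 115 and 137 CPM in mutant libraries, against 137, 141 and 217 CPM in control libraries, so its groups were separated by a very small gap.

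Of 10 other V-ATPase subunits and assembly factors in the table, 7 were negative with a median of -0.13. Atp6v0e2, an e subunit form, was the 1 gene called, higher with the replicate block, at 8.71, 10.3 and 3.50 CPM in mutant libraries, against 3.83, 5.61 and 1.42 CPM in control libraries (log2 fold change 1.07 ± 0.55, SE, adjusted p = 0.0483 with the block). Of 14 lysosomal genes outside the pump, 13 were negative with a median of -0.23 and 0 passed by any of the 3 fits. Mcoln1, a lysosomal cation channel, had a log2 fold change of -0.26. Of 4 genes for osteoclast-inducing ligands and their decoy receptor, 3 were negative and 1 was positive (median -0.22), and 0 passed by any of the 3 fits. Csf1, the survival factor of the lineage, had 72.7, 81.0 and 94.5 CPM in mutant libraries, against 95.8, 95.4 and 128 CPM in control libraries, with 3 mutant values below all 3 control values. Il34 was below 6 CPM in every library, with a log2 fold change of -0.67 ± 0.40 (SE). Tnfrsf11b, the decoy receptor for RANKL, had a log2 fold change of 0.40 ± 0.24 (SE), and Tnfsf11, which encodes RANKL, had one of -0.07 ± 0.31 (SE), which was 0.08 under total-count scaling.

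Markers of other cells in the femur moved between the same libraries. The 14 osteoblast markers, Col1a1 among them, all had negative log2 fold changes with a median of -0.43, and summed to between 62898 and 114042 CPM in mutant libraries and between 124559 and 180444 CPM in control libraries. Mutant 1 was the lowest library for 13 of these 14 markers and Control 3 the highest for 12, as for the members. The ratio of Acp5 plus Ctsk to Col1a1, chosen after the data were seen, was 0.0317, 0.0274 and 0.0317 in mutant libraries, against 0.0198, 0.0252 and 0.0310 in control libraries. Relative to this collagen transcript the resorption enzymes were higher in the mutant library by 0.68, 0.12 and 0.03 (log2) in pairs 1, 2 and 3. The third pair was thus nearly level, and the groups overlapped.

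Of the 12 macrophage markers, 9 were negative with a median of -0.30, and they summed to between 1087 and 1221 CPM in mutant libraries and between 871 and 1127 CPM in control libraries. Lyz2 carried the direction of this sum: the other 11 markers summed to 497, 511 and 625 CPM in mutant libraries, against 491, 659 and 771 CPM in control libraries. Csf1r, the receptor for CSF1, was lower with the replicate block (log2 fold change -0.49 ± 0.24, SE, adjusted p = 0.0266 with the block), and Lyz2 was higher (0.59 ± 0.18, SE, 0.0385). The neutrophil, megakaryocyte and cartilage lists had positive median log2 fold changes, of 1.60 over 14 genes, 1.63 over 12 genes and 1.97 over 12 genes. The 11 skeletal muscle markers had a median of 0.46. They summed to 21015, 33263 and 7560 CPM in mutant libraries, against 17199, 26106 and 3916 CPM in control libraries. Control 3 was the lowest library for 11 of 11 muscle and 14 of 14 neutrophil markers. It was also the lowest for 11 of 12 megakaryocyte, 13 of 16 erythroid and 8 of 12 cartilage markers. Gp1bb, a platelet glycoprotein gene of the megakaryocyte list, was at 0 rounded counts in Control 3, and every other marker of these lists had counts in every library. The part of such differences in cell content in the levels of the members was not tested.

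**Figure D5:**
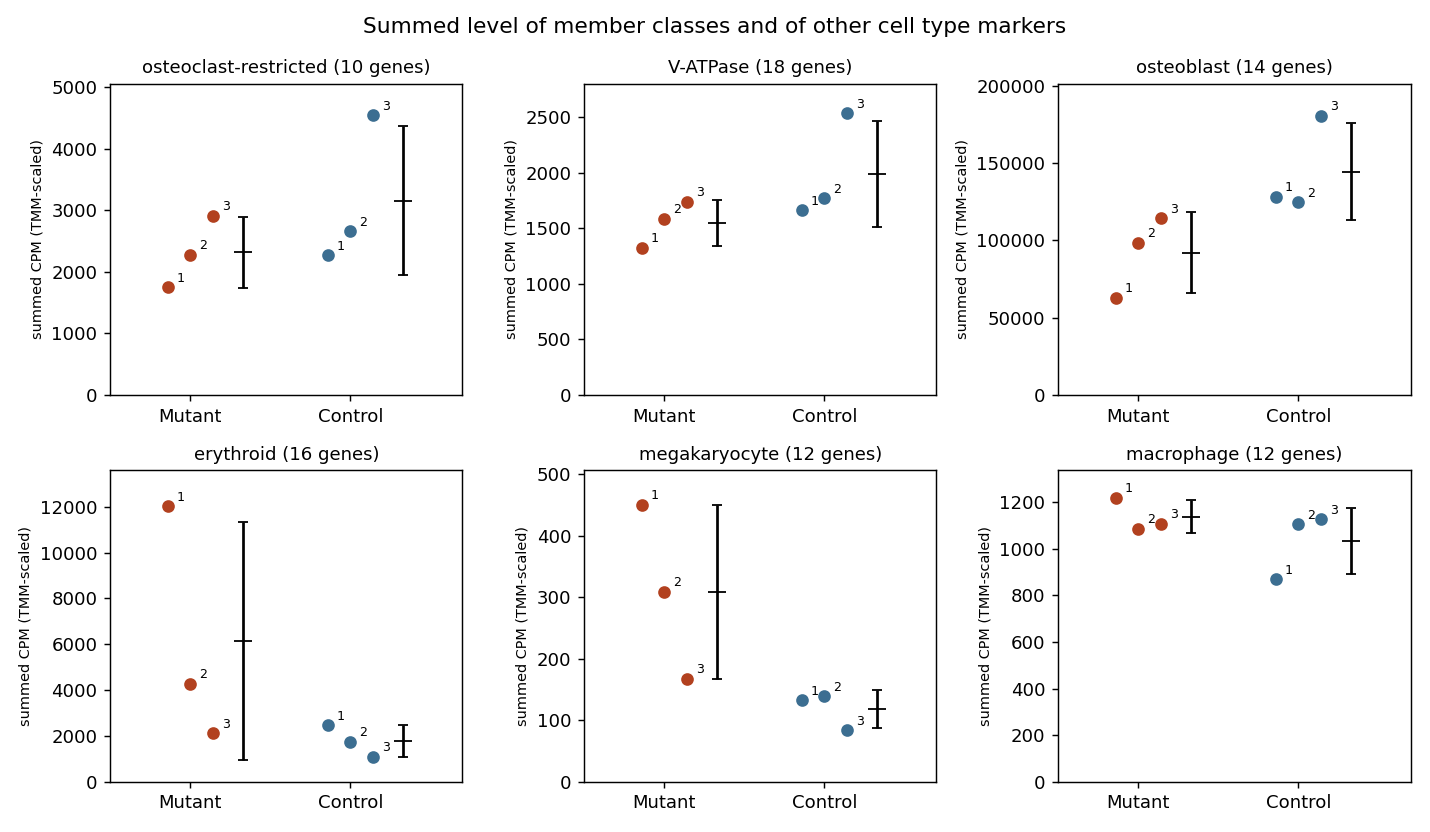
Summed CPM of 2 member classes and of 4 marker lists in each library, with the replicate number beside each point and the mean ± SD of each group of 3 at its right. Means of the osteoclast-restricted, V-ATPase and osteoblast sums are lower in mutant libraries, and those of the erythroid and megakaryocyte sums are higher. The osteoblast groups do not overlap (62898 to 114042 CPM in mutant, 124559 to 180444 CPM in control libraries). The osteoclast-restricted (1755 to 2915 against 2275 to 4545 CPM), V-ATPase (1326 to 1739 against 1665 to 2534 CPM) and erythroid groups overlap. The ion transport and ruffled border sum, not shown, spans 591 to 765 CPM in mutant and 567 to 779 CPM in control libraries.

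The genes of 6 members overlap another gene that holds at least 10% as many counts. These are Oscar with Ndufa3, Atp6v0a1 with Gm57395, Atp6v1a with Naa50, Atp6v1d with Pals1 and Eif2s1, Atp6ap2 with 1810030O07Rik, and Slc4a2 with Fastk. Whether the counting used strand was not given in the sources used here, so the split of reads between these partners is uncertain.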

How the data were processed

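Femur total RNA of 3 mutant and 3 control mice was depleted of ribosomal RNA and sequenced, and STAR placed the reads on mm39 by the methods. Partek and mm39 stand in the submitters' notes on processing. No version, annotation or counting setting was given in the sources used here. Per gene, the authors deposited estimated counts, not scaled, of which 70.7% were whole. They were rounded. Names and GRCm39 coordinates came from GENCODE vM39 (23572 of 23733 genes matched).

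Genes were kept by filterByExpr (minimum 10 counts), scaled by TMM, and tested by edgeR 4.0.16 quasi-likelihood in R 4.3.3, without a replicate block, adjusted by Benjamini-Hochberg over 18126 genes. DESeq2 1.42.0 and other settings were alternatives. SE was the estimate over the root of F. Libraries of the same number had correlated deviations from their group means (0.154, 0.212 and 0.465, all over 0.1), so the numbers were taken as pairs. No source ties them to a litter, Mutant 1 correlated more with Control 2 (0.202), and the blocked values stand beside the results they change. Ratios used exact permutation tests. The mice are separate animals, so p-values without the block measure the spread between mice. Blocked p-values measure only the spread left after differences between replicate numbers are removed. Scripts were tested on simulated data. The members and lists were chosen with earlier results of these data known, and the genes named are the 35 members and, per further list, up to 4 genes called by any of the 3 fits or else the 2 with the smallest p, while others were chosen after their values were seen. One lysosomal gene that this rule names is not reported here. Python 3.11.15 drew the figures.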

Additional observations from a re-analysis of the deposited data

How the results depend on the processing

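The count of members called was 0 by edgeR in the unpaired fit, under median-ratio size factors, total-count scaling, no filter, a filter of 1 CPM in 3 libraries, and DESeq2, and was 0 to 0 when single libraries were left out. With the replicate block it was 6, with block and total-count scaling 2, and with the block and pair 1, 2 or 3 left out it was 3, 5 and 1. Over all genes the same settings gave 602, 1034, 297, 700 and 157 calls, DESeq2 gave 118, and single libraries left out gave 0 to 8. The 8 calls came without Mutant 2.

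The 3 class medians kept their sign in every setting. Leaving out single libraries, they ran between -0.71 and -0.21 (osteoclast-restricted), -0.39 and -0.10 (V-ATPase) and -0.53 and -0.27 (ion transport and ruffled border), with the value nearest 0 without Control 3 in each. The same range was -0.87 to -0.52 for the Atp6v0d2 to Atp6v0d1 ratio, -0.75 to -0.41 for the Tcirg1 ratio and -0.81 to -0.32 for the Acp5 plus Ctsk to macrophage ratio, whose value was -0.22 without Lyz2 in the marker sum.

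Single log2 fold changes turned positive for some members. Total-count scaling gave 0.139 for Atp6v0d1, 0.126 for Atp6v0e, 0.0232 for Atp6v1d and 0.0024 for Atp6v1f. The block with total-count scaling gave 0.148, 0.162, 0.0337 and 0.0097 for these, 0.0088 for Atp6ap2 and 0.0079 for Ostm1. The block without pair 3 gave 0.296 for Siglec15, 0.0606 for Atp6v0d1, 0.126 for Atp6v0e and 0.0268 for Atp6ap2, and without pair 2 it gave 0.0123 for Atp6v0e. With single libraries left out, the range was -0.658 to 0.0556 for Acp5, -0.304 to 0.0067 for Itgb3, -0.543 to 0.259 for Siglec15, -0.162 to 0.0993 for Atp6v0d1, -0.236 to 0.254 for Atp6v0e, -0.235 to 0.0165 for Atp6v1d, -0.356 to 0.0993 for Atp6ap2 and -0.295 to 0.0349 for Ostm1. Each of these highest values came without Control 3. Atp6v0d1 was also positive without Mutant 1 or Control 2, and Atp6v0e without Mutant 1 or Mutant 2. Causes were not tested. With 3 mice per group, intervals of the members were wide: their SE ran between 0.15 and 0.65 on the log2 scale.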
